A study of Sorghum bicolor with 12 samples.

Results

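The loci described here carry a Gene Ontology (GO) term for lignin synthesis, phenylpropanoid synthesis, lignin breakdown or suberin synthesis in the deposited expression table, and no term for salt response, abscisic acid response, water deprivation, peroxidase activity or hydrogen peroxide breakdown. The rule took 156 of 34352 loci. Of the 199 loci with an included term, 43 were dropped by an excluded one, and 31 of these were heme peroxidases. Expression was measured in roots of sweet sorghum (Sorghum bicolor) of plants treated from the 3-leaf stage, in the line M-81E, which tolerates salt, and in Roma, which is sensitive to it. Each line was grown without added NaCl (M-81E-CK and Roma-CK) or exposed to NaCl for 24 h (M-81E-salt and Roma-salt), with 3 libraries in each of the 4 groups. The concentration is not given in the sample labels. According to the study's methods, NaCl was raised in steps to its final level before that exposure. The study calls the 3 libraries of a group biological replicates. How many plants each held is not given in the sources used here, so the p-values measure the spread between these libraries.

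Lignin is a phenolic polymer that stiffens and waterproofs the walls of xylem vessels and, in roots, of the Casparian strip. Its building blocks, the monolignols, are made from phenylalanine, which phenylalanine ammonia-lyase (PAL) feeds into the phenylpropanoid pathway, and they are then linked by oxidases in the wall. Dirigent proteins steer the coupling of such phenolic radicals. Suberin is a polyester of fatty acids, fatty alcohols and ferulate laid down in the root endodermis and exodermis, where it limits the flow of water and ions.

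By the enzyme terms in the table, the 156 members were 46 dirigent proteins, 22 loci classed with cinnamoyl-CoA reductase (CCR), 17 with hydroxycinnamoyltransferase (HCT), 15 fatty acyl-CoA reductases, 13 cinnamyl alcohol dehydrogenases (CAD), 8 PAL, 7 copper-containing oxidases, 5 feruloyltransferases of suberin and 3 ferulate 5-hydroxylases (F5H). The coumaroyl shikimate 3-hydroxylases (C3H), caffeoyl-CoA O-methyltransferases (CCoAOMT), fatty acid omega-hydroxylases, cellulose synthases and transcription regulators had 2 members each. The last 10 members had other functions, among them a transaldolase and 2 loci of a subunit of the vacuolar proton pump. The dirigent role rests on the GO term for guiding stereospecific synthesis, and KEGG gave 27 of these 46 loci no class and 19 the class of another protein, such as a disease resistance protein. Loci called dirigent below carry that GO term, whatever their KEGG class. By term, 78 members were marked for lignin synthesis, 56 for phenylpropanoid synthesis, 22 for suberin synthesis and 8 for lignin breakdown. All 8 loci with the lignin breakdown term were PAL, which is no lignin-degrading enzyme, and the table held 0 loci of the laccase class of KEGG. KEGG places the 7 copper oxidases with ascorbate oxidases, which are relatives of laccases. The rule took 0 loci of cinnamate 4-hydroxylase (C4H) or of 4-coumarate:CoA ligase (4CL).

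Levels are given in FPKM, a fragment count divided by the length of the locus and by the mapped fragments of the library. Averaged over the 12 libraries, 86 of the 156 members reached 1 FPKM, 31 reached 10 FPKM and 7 reached 100 FPKM. A value above 0 in all 12 libraries was listed for 99 members. A value of 0 can be an estimate that failed, and in each group 7 to 9 members were listed at 0 in one library and at 1 FPKM or more in another library of the same group. Where a group held such a 0, the value of each library is given without a mean. The members took 1.22 to 1.85% of the summed FPKM of a library. On the scale log2(FPKM + 1), the values of the members correlated at 0.860 to 0.955 between libraries of a group (12 pairs), at 0.866 to 0.954 between the treatments of a line (18 pairs) and at 0.809 to 0.926 between the lines (36 pairs). These are correlations across loci, which are not independent replicates. Of 10 loci with the Casparian strip term, 8 averaged 1 FPKM or more, with summed levels of 61.7 to 98.9 FPKM. Of 18 loci of the leaf light-harvesting antenna, 4 did, with sums of 12.02 to 35.8 FPKM.

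PAL took the largest share of the summed level of the members, 53.5 to 60.04% in the 12 libraries. The sum over the 8 PAL loci was 2484 ± 97 FPKM (SD, n = 3) in M-81E-CK, 2542 ± 260 in M-81E-salt, 2365 ± 237 in Roma-CK and 2206 ± 223 in Roma-salt. These 4 ranges overlapped within each line. CCoAOMT, which adds a methyl group on the way to guaiacyl and syringyl units, followed with sums of 1075 ± 6 in M-81E-CK, 1042 ± 237 in M-81E-salt, 612 ± 76 in Roma-CK and 599 ± 73 in Roma-salt. The sums of M-81E and Roma did not overlap. All other roles stayed at or under 249.7 FPKM in each library.

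**Figure D1:**
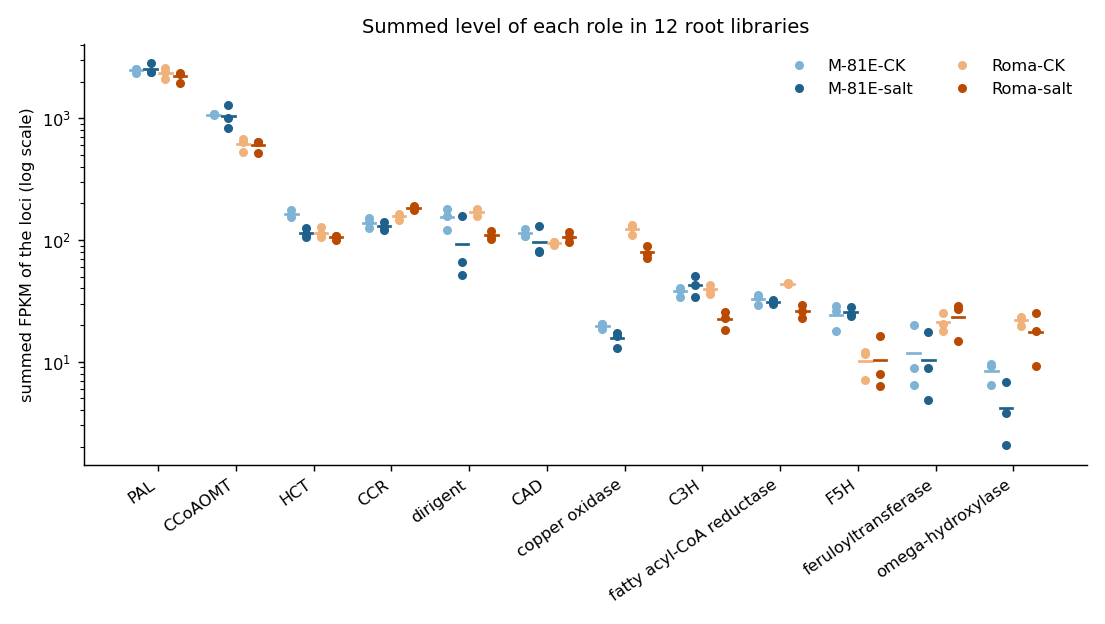
Summed FPKM (log axis) of the loci of each role in the 12 libraries, with a point for each library, a bar for the mean of 3 and a colour for each group. PAL stood highest in all groups, the copper oxidases of Roma (71.6 to 134 FPKM) lay above those of M-81E (13.1 to 20.5 FPKM), and dirigent sums in M-81E-salt ranged from 51.9 to 157 FPKM.

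Within PAL, SORBI_3004G220400 had the highest level, with 962, 1012 and 1015 FPKM in M-81E-CK, 962, 867 and 1203 in M-81E-salt, 884, 875 and 841 in Roma-CK and 1020, 997 and 878 in Roma-salt. Its neighbour by locus number, SORBI_3004G220300, ranged from 642 to 981 FPKM and SORBI_3004G220600 from 116 to 326 FPKM. These PAL loci did not pass the test in any comparison. SORBI_3004G220700 was listed at 0 in 10 of the 12 libraries and at 311 FPKM in M-81E-salt2 and 339 FPKM in Roma-CK3. In the same 2 libraries, SORBI_3006G148800 was at 4.74 and 7.94 FPKM, against 39.6 to 72.6 FPKM in the other 10. SORBI_3004G220500 was at 0.660 FPKM in M-81E-salt1 and at 57.9 to 141 FPKM in the other 11 libraries. PAL copies are similar to each other, and how the authors' counting divided reads among them is not given in the sources used here. Whether this accounts for these jumps was not tested. Values of single PAL loci are uncertain, and whether their sum is less so was not tested either.

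**Figure D2:**
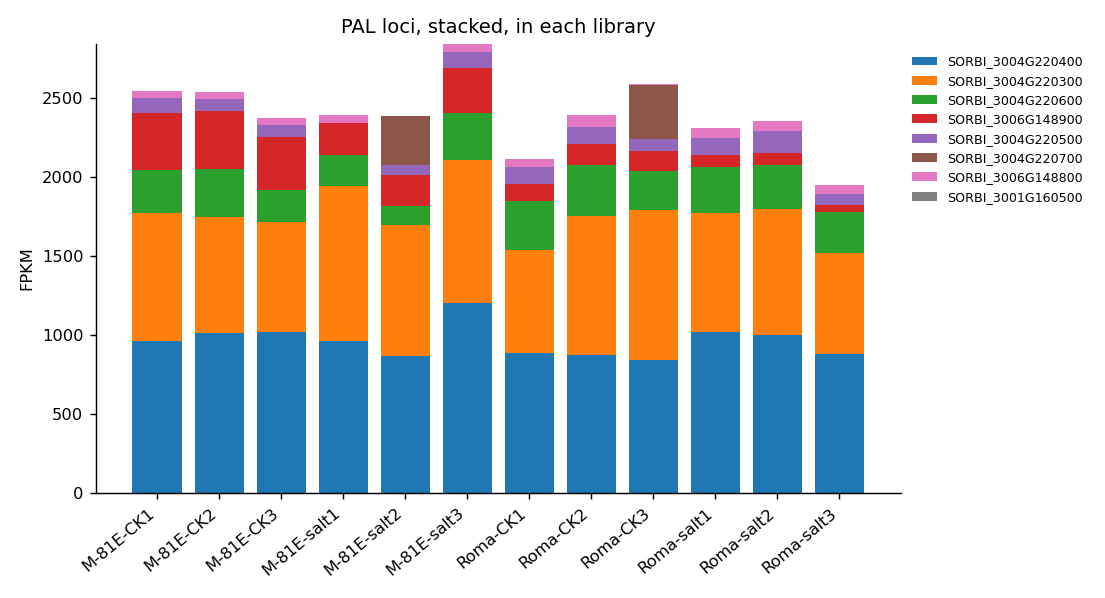
FPKM of the 8 PAL loci (stacked bars from 0) in each of the 12 libraries. SORBI_3004G220700 appears in M-81E-salt2 (311 FPKM) and Roma-CK3 (339 FPKM) alone, while the height of the whole bar stayed between 1950 and 2842 FPKM.

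Each comparison was tested with limma on log2(FPKM + 1) over all loci above 0 in at least 1 of its libraries. Of single members, rose, fell, higher and lower are written only with a Benjamini-Hochberg adjusted p under 0.05. A second, looser rule follows the thresholds of the study's methods. It calls a locus a differentially expressed gene (DEG) where the unadjusted p is under 0.05. The ratio of the group means must also be at least 1 on the log2 scale in either direction. DEGs are sorted into higher and lower by that ratio, without an adjusted p. After rescaling, and in counts by role or pathway class, the sign of limma's fold change sorts them instead. With 3 libraries against 3, an exact permutation test of a single value cannot go below p = 0.1. In whole roots, fewer cells of a type and less RNA per cell cannot be told apart.

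The comparison of M-81E-salt with M-81E-CK asked which of these loci changed in the tolerant line. Of 152 members tested, 2 passed the adjusted threshold (0.826% of all loci did, 0.332% upward and 0.494% downward), and both fell. Both carry the dirigent term, while KEGG gives SORBI_3005G218500 no class and SORBI_3009G021600 that of a disease resistance protein. SORBI_3005G218500 was at 7.38, 6.23 and 5.68 FPKM under CK against 1.38, 1.05 and 0.518 FPKM in salt. No salt library reached the lowest CK library, and its fitted log2 fold change was -1.92 (SE 0.20, adjusted p = 0.0265). SORBI_3009G021600 was at 9.65, 10.8 and 13.7 FPKM under CK against 2.64, 4.05 and 2.38 FPKM in salt, again without overlap (log2 fold change -1.63, SE 0.20, adjusted p = 0.04). Leaving out any one library but M-81E-salt3 ended the first call (adjusted p 0.0354 to 0.105 over the 6 omissions), and leaving out any one ended the other (0.0579 to 0.136), while both directions stayed. By the DEG rule 15 members were called (6.57% of all loci were), 4 higher (2.63% of members, 3.07% of all loci) and 11 lower (7.24% of members, 3.5% of all loci), and 5 of the 15 had a mean under 1 FPKM.

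Of the 11 lower DEGs, 7 were dirigent proteins, 2 were CCR-class loci, 1 was a copper oxidase and 1 an F5H. Dirigent loci made up 44 of the 152 members tested. The dirigent locus SORBI_3005G218800 had 5.29, 3.79 and 3.83 FPKM in CK and 0.362, 1.16 and 0.346 FPKM in salt. Its groups did not overlap, and its adjusted p was 0.0521 (log2 fold change -1.73, SE 0.24). The CCR-class locus SORBI_3010G066000 had 4.49, 4.88 and 4.96 FPKM in CK and 2.10, 2.74 and 2.29 FPKM in salt (log2 fold change -0.78, SE 0.11, adjusted p = 0.0592). The 4 DEGs with larger salt values were low. SORBI_3002G205100, classed with HCT, was at 0.397, 0.227 and 0.249 FPKM under CK against 0.472, 0.954 and 0.920 FPKM in salt (adjusted p = 0.215). The copper oxidase SORBI_3009G162800 was at 0.0110 to 0.0217 FPKM under CK against 0.0641 to 0.178 FPKM in salt (adjusted p = 0.203). The dirigent SORBI_3006G257100 was at 0.221 to 0.648 FPKM under CK against 0.580 to 2.51 FPKM in salt, so its groups overlapped (adjusted p = 0.297). A dirigent locus that the table names MIR398 was at 0.168 to 0.581 FPKM under CK against 0.676 to 3.20 FPKM in salt (adjusted p = 0.31), and neither the name nor the share of each overlapping gene was resolved. None of these 4 passed the adjusted threshold.

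The same comparison in the sensitive line Roma gave 7 calls among 153 members (1.82% of all loci were called, 1.04% upward and 0.784% downward), with 3 that rose and 4 that fell. The fatty acyl-CoA reductase SORBI_3005G063400 belongs to the enzymes that make the primary alcohols of suberin. It was at 12.7, 12.6 and 13.1 FPKM in the Roma-CK libraries against 5.74, 5.86 and 5.09 FPKM in Roma-salt. The spread within each group was small beside this gap, and the log2 fold change was -1.07 (SE 0.08, adjusted p = 0.0147). Its neighbour by locus number and the most abundant member of that family, SORBI_3005G063300, had 17.5, 17.8 and 18.6 FPKM in CK and 12.2, 13.9 and 6.32 FPKM in salt (adjusted p = 0.244). The copper oxidase SORBI_3003G352700 fell from 87.1, 82.4 and 72.8 FPKM to 41.4, 33.8 and 32.0 FPKM (log2 fold change -1.16, SE 0.13, adjusted p = 0.0298). SORBI_3003G352800, another locus of the same class and with a close locus number, rose from 10.5, 9.73 and 8.51 FPKM to 17.8, 14.7 and 17.3 FPKM (0.74, SE 0.12, adjusted p = 0.0495). These copper oxidases thus moved in opposite directions in the same Roma libraries.

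The dirigent SORBI_3005G218500, which fell in M-81E, also fell in Roma, from 3.71, 3.92 and 3.37 FPKM to 1.03, 0.841 and 0.3004 FPKM (log2 fold change -1.46, SE 0.20, adjusted p = 0.0395). The dirigent SORBI_3001G507100 was at 3.90, 2.24 and 2.65 FPKM in Roma-CK and listed at 0 in all 3 Roma-salt libraries (adjusted p = 0.022). The dirigent SORBI_3001G344700 rose from 0.252, 0.277 and 0.382 FPKM to 1.25, 1.69 and 1.12 FPKM (0.85, SE 0.13, adjusted p = 0.0477). SORBI_3007G141200 rose from 42.0, 43.3 and 45.7 FPKM to 62.9, 69.0 and 76.5 FPKM (0.65, SE 0.10, adjusted p = 0.048). Its mean over the 12 libraries, 38.0 FPKM, was the largest of the CCR class. SORBI_3002G146000 of that class, named after its values were seen, averaged 36.8 FPKM and was the larger of these loci in every M-81E library. In Roma it had 36.4 to 47.7 FPKM in CK and 38.0 to 59.0 FPKM in salt, so its groups overlapped. CCR catalyses the first step that is specific to monolignols.

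With a library left out, 0 to 2 of these 7 calls remained, and none of them did without Roma-salt1 or without Roma-salt2. The call of SORBI_3005G063400 was lost without Roma-CK2, Roma-salt1 or Roma-salt2 (adjusted p at most 0.0635), and that of SORBI_3001G507100 without Roma-CK3 or any one salt library (at most 0.0759). The calls of SORBI_3003G352700, SORBI_3003G352800, SORBI_3005G218500, SORBI_3007G141200 and SORBI_3001G344700 were lost whichever library was left out, with adjusted p of at most 0.15. No direction changed.

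By the DEG rule 30 of the 153 members were called in Roma (9.6% of all loci were), 6 higher (3.92% of members, 5.15% of all loci) and 24 lower (15.7% of members, 4.44% of all loci). Of the 30, 14 had a mean under 1 FPKM. Dirigent proteins made up 12 of the 24 lower DEGs and 44 of the 153 members tested. The other lower DEGs were 2 CAD, 2 F5H, 2 fatty acyl-CoA reductases, 2 copper oxidases, 1 C3H, 1 CCR-class, 1 HCT-class locus and 1 regulator. PAL, CCoAOMT and the feruloyltransferases had 0 DEGs in both lines. The dirigent SORBI_3006G011900 was at 16.7, 19.3 and 15.5 FPKM in the Roma-CK libraries against 3.18, 2.71 and 0.190 FPKM in Roma-salt, a log2 fold change of -2.78 with an SE of 0.50 (adjusted p = 0.064). The regulator SORBI_3007G018100, which KEGG places with a subunit of the CCR4-NOT mRNA decay complex, had 2.28, 2.43 and 2.99 FPKM in CK and 0.782, 1.73 and 1.33 FPKM in salt (adjusted p = 0.174). The CAD locus SORBI_3010G072100 was at 0.171 to 0.204 FPKM under CK against 0.502 to 0.673 FPKM in salt (0.39, SE 0.07, adjusted p = 0.0577).

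Over the members that averaged 1 FPKM or more, the median log2 fold change was -0.09 in M-81E (0.03 over all loci of that level) and -0.23 in Roma (-0.01 over all loci). All salt libraries lay below all CK libraries at 28 members in M-81E (18.4% of members, 9.93% of all loci) and at 36 in Roma (23.5% of members, 11.5% of all loci). They lay above at 13 members in M-81E (8.55% of members, 12.2% of all loci) and at 15 in Roma (9.8% of members, 13.1% of all loci). Of the 86 members that averaged 1 FPKM or more, 49 had a negative value in M-81E and 55 in Roma. Of the 11 lower DEGs of M-81E, 7 (63.6%) were lower DEGs in Roma as well, which is 29.2% of the 24 there. Over all loci, 209 were lower DEGs in both lines, 18.5% of those of M-81E and 14.6% of those of Roma. The 7 shared members were the dirigents SORBI_3005G218500, SORBI_3005G218800, SORBI_3009G021600 and SORBI_3002G093700, the CCR-class SORBI_3004G340300, the F5H SORBI_3002G029500 and the copper oxidase SORBI_3009G162300. The last 4 of these were named after their values were seen. SORBI_3005G218800 was at 1.91, 2.54 and 1.62 FPKM in the Roma-CK libraries against 0.523, 0.666 and 0.223 FPKM in Roma-salt (adjusted p = 0.0657). SORBI_3009G021600 was at 8.95, 9.91 and 6.01 FPKM and at 1.53, 3.51 and 1.42 FPKM (adjusted p = 0.0722). SORBI_3002G093700, the highest of the 7, was at 25.3, 39.5 and 44.1 FPKM in M-81E-CK, 11.8, 14.0 and 10.3 in M-81E-salt, 21.5, 30.6 and 15.6 in Roma-CK and 10.8, 10.3 and 5.69 in Roma-salt. In each of these dirigents no salt library reached the CK libraries of its line. Of the higher DEGs, SORBI_3002G205100 alone was a higher DEG in both lines, with 1.12, 0.734 and 0.609 FPKM in the Roma-CK libraries against 2.11, 1.499 and 1.97 FPKM in Roma-salt (adjusted p = 0.131). The dirigent SORBI_3006G257100 was a higher DEG in M-81E and a lower DEG in Roma, and the dirigent SORBI_3009G021300 was the reverse.

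**Figure D3:**
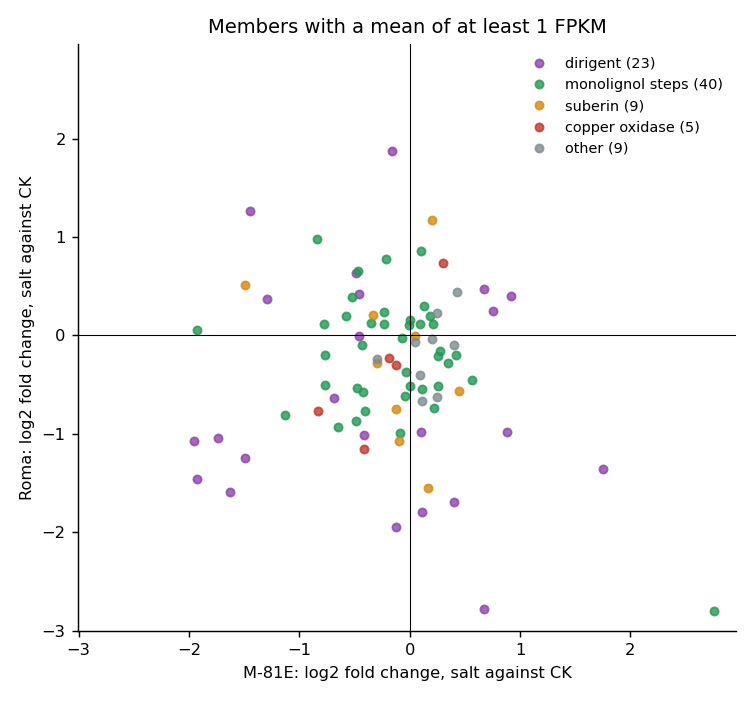
Fitted log2 fold change, salt against CK, of the 86 members that averaged 1 FPKM or more, in M-81E (horizontal) and in Roma (vertical), with a point for each locus and a colour for its role. Both values were below 0 for 31 members and above 0 for 13, while 18 were below 0 in M-81E alone and 24 in Roma alone.

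Whether the salt response differed between the lines was tested as an interaction over all 12 libraries. Of the 156 members, 5 passed (1.81% of all loci did, 1.01% upward and 0.795% downward), 1 with a larger value in Roma and 4 with a smaller one. SORBI_3005G063400, the fatty acyl-CoA reductase that fell in Roma, had 10.8, 11.97 and 10.7 FPKM in the M-81E-CK libraries against 9.58, 10.9 and 10.7 FPKM in M-81E-salt, so the groups of M-81E overlapped (interaction -0.98, SE 0.11, adjusted p = 0.00502). CYP98A1, a C3H that hydroxylates the phenolic ring of the shikimate ester, measured 30.4, 28.8 and 28.9 FPKM in M-81E-CK, 34.7, 29.6 and 39.7 in M-81E-salt, 30.1, 32.7 and 36.4 in Roma-CK and 21.0, 21.4 and 16.1 in Roma-salt. Its Roma-salt libraries lay below all 9 others, and its interaction was -0.96 (SE 0.19, adjusted p = 0.038), while the salt comparison within Roma did not pass (adjusted p = 0.0699). The locus of the neighbouring dirigents SORBI_3002G093900 and SORBI_3002G093800 had 2.98 to 3.10 FPKM in M-81E-CK, 3.03 to 3.68 in M-81E-salt, 6.94 to 10.2 in Roma-CK and 2.92 to 4.48 in Roma-salt (-1.09, SE 0.22, adjusted p = 0.0388).

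The copper oxidase SORBI_3003G352700 had 10.4, 10.8 and 10.8 FPKM in the M-81E-CK libraries against 8.03, 8.41 and 6.93 FPKM in M-81E-salt, a smaller difference than in Roma (interaction -0.75, SE 0.16, adjusted p = 0.0496). The dirigent SORBI_3009G021300 was at 1.39, 1.20 and 1.57 FPKM in the M-81E-CK libraries against 0.413, 0.441 and 0.510 in M-81E-salt. In Roma it was at 0.114, 0.133 and 0.150 FPKM under CK against 0.291, 0.288 and 0.317 in salt. All its salt libraries lay below CK in M-81E and above CK in Roma, and the interaction was 0.91 (SE 0.10, adjusted p = 0.00453). Within a line its adjusted p was 0.069 in M-81E and 0.065 in Roma. The calls of SORBI_3005G063400 and SORBI_3009G021300 held with each of the 12 libraries left out in turn (adjusted p at most 0.0147 and 0.0137). CYP98A1 kept its call in 3 of the 12 omissions, without M-81E-salt2, Roma-CK1 or Roma-salt2 (0.0838 at most over the 12). SORBI_3003G352700 kept it without Roma-CK3 or Roma-salt1 (0.108 at most), and the locus of the paired dirigents without Roma-CK1 or Roma-salt1 (0.0853 at most).

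**Figure D4:**
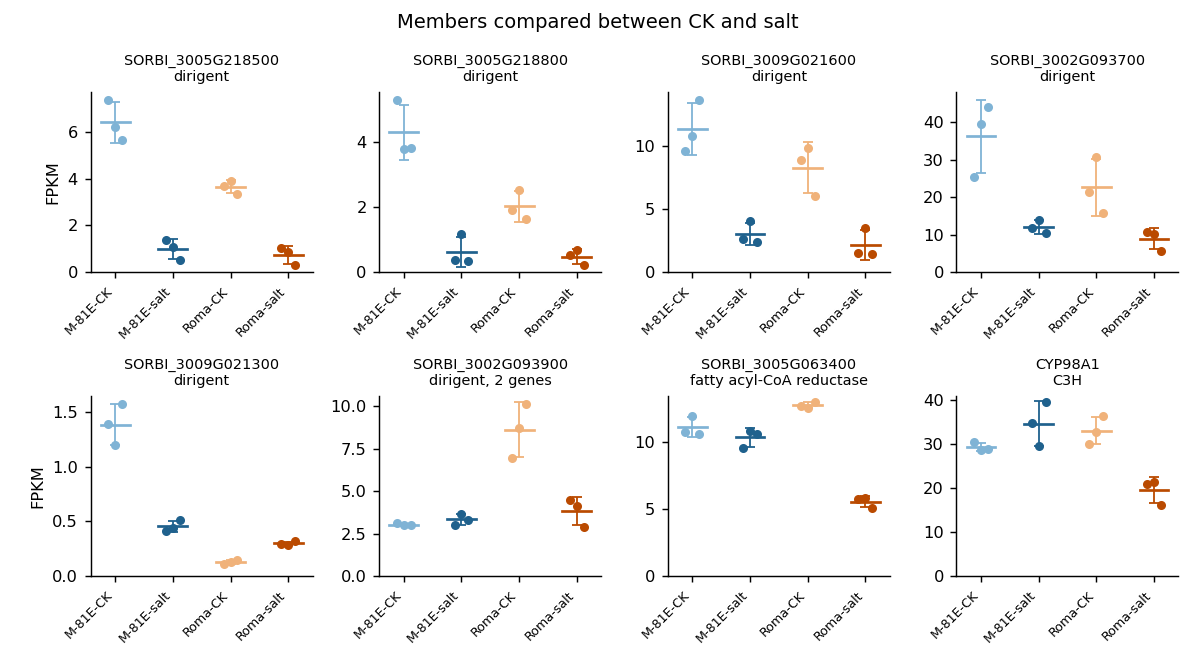
FPKM of 8 members in the 4 groups, with a point for each library, a bar for the mean and whiskers for the SD (n = 3), each axis starting at 0. For the first 4 dirigents every salt library lies below the CK libraries of its line, SORBI_3009G021300 goes opposite ways in the lines, and SORBI_3005G063400 and CYP98A1 have their smallest values in Roma-salt.

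More members differed between the lines than between the treatments of a line. In CK, 61 of 153 members differed between Roma and M-81E (27.3% of all loci did, 18.5% higher and 8.84% lower in Roma), and in salt 46 of 152 (30.4% of all loci, 21.2% higher and 9.15% lower). Under both conditions 30 of the 149 members tested in both were called (20.1%, against 17.7% of all loci), 20 higher in Roma (13.4%, against 11.8% of all loci) and 10 lower (6.71%, against 5.68%). These counts depend on scaling, because the median locus was higher in Roma than in M-81E by 0.42 on the log2 scale in CK and by 0.38 in salt. Among loci that averaged 10 FPKM or more this shift was 0.18 and 0.15, and at 50 FPKM or more it was 0.02 and 0.07. With FPKM as deposited, 40 of the called members were higher and 21 lower in Roma in CK, and 27 and 19 in salt. After all libraries were rescaled to a common median, 26 were higher and 28 lower in CK, and 18 and 27 in salt. Rescaled to the median of loci with 10 FPKM or more, 35 were higher and 22 lower in CK, and 24 and 22 in salt. By the DEG rule 40 and 16 members were called in CK (16.9% and 9.05% of all loci, 26% in all) and 29 and 17 in salt (18.1% and 8.83% of all loci, 26.9% in all), which became 36 and 26, and 22 and 25, after rescaling.

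The copper oxidases were higher in Roma at 5 of 7 loci in CK and at 4 of 7 in salt, with the same counts under each of the 3 scalings. SORBI_3001G422300 had 0.635, 0.314 and 0.505 FPKM in the M-81E-CK libraries against 11.5, 12.8 and 8.90 FPKM in Roma-CK (log2 fold change 3.01, SE 0.17, adjusted p = 0.000567; 2.73 after rescaling). In salt it had 0.327, 0.641 and 0.140 FPKM in M-81E and 9.84, 7.49 and 8.94 FPKM in Roma. SORBI_3003G352700 differed by 2.80 in CK (SE 0.09, adjusted p = 0.000176) and by 2.06 in salt (SE 0.13, adjusted p = 0.00057), or by 2.37 and 1.69 after rescaling, with the library values given above. SORBI_3003G353200 had 3.55, 2.95 and 3.12 FPKM in the M-81E-CK libraries against 19.04, 19.8 and 16.8 FPKM in Roma-CK (2.21, SE 0.11, adjusted p = 0.000425). SORBI_3003G352800 had 2.74, 2.28 and 2.08 FPKM in the M-81E-CK libraries against 4.003, 2.97 and 2.55 in M-81E-salt, and it was higher in Roma by 1.65 in CK and 2.09 in salt (adjusted p = 0.000912 and 0.000795). No library of one line reached the range of the other for any of these 4 loci. These 4 calls held with each library left out in turn.

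Among the monolignol steps the differences went both ways. PAL SORBI_3006G148900 was lower in Roma, with 363, 370 and 336 FPKM in M-81E-CK against 113, 128 and 127 FPKM in Roma-CK (log2 fold change -1.53, SE 0.12, adjusted p = 0.000967), and 204, 200 and 282 FPKM in M-81E-salt against 71.8, 76.2 and 47.4 FPKM in Roma-salt (-1.81, SE 0.24, adjusted p = 0.00437). This is a single PAL locus, with the uncertainty given above. The PAL sum overlapped between the lines in CK (2373 to 2544 FPKM in M-81E, 2117 to 2589 in Roma). In salt it did not (2389 to 2842 FPKM in M-81E, 1950 to 2356 in Roma). This separation rested on SORBI_3004G220700, which held 311 FPKM in M-81E-salt2 and was listed at 0 in the other salt libraries. Without that locus the M-81E-salt2 sum was 2078 FPKM, within the Roma-salt range. The CCR-class SORBI_3003G116800 was lower in Roma, at 10.3 to 10.9 FPKM against 27.3 to 35.2 FPKM in CK (-1.53, SE 0.12, adjusted p = 0.00103) and at 4.7996 to 9.21 against 30.6 to 37.8 FPKM in salt (-2.18, SE 0.23, adjusted p = 0.00203). SORBI_3007G141200 of the same class was higher in Roma, with 16.6, 21.3 and 11.2 FPKM in M-81E-salt against the Roma-salt values above (2.06, SE 0.23, adjusted p = 0.00269; 1.67 after rescaling). In CK, where M-81E had 19.9 to 23.9 FPKM, this difference was 0.94 (adjusted p = 0.00255) and did not pass after rescaling (0.49, adjusted p = 0.0505).

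CAD reduces the cinnamyl aldehydes to monolignols in the last step, and its members also split. SORBI_3004G071000, the CAD whose loss gives the brown midrib phenotype bmr6 of sorghum, was higher in Roma. It measured 3.62, 3.35 and 3.70 FPKM in M-81E-CK, 3.97, 4.19 and 3.56 in M-81E-salt, 10.3, 13.0 and 6.47 in Roma-CK and 17.4, 18.5 and 18.8 in Roma-salt. The difference was 1.21 in CK (SE 0.24, adjusted p = 0.0171) and 1.97 in salt (SE 0.09, adjusted p = 0.000362), or 0.83 and 1.62 after rescaling. The CK call was lost without M-81E-CK1, M-81E-CK2 or Roma-CK1 (adjusted p at most 0.061). The salt response of this locus in Roma did not pass (0.86, SE 0.23, adjusted p = 0.141) although its groups did not overlap. Its level in both lines was below that of the most abundant CAD-class locus, SORBI_3002G195400, at 35.7 to 59.0 FPKM in M-81E, 16.96 to 34.2 FPKM in the Roma-CK libraries against 40.6 to 44.4 FPKM in Roma-salt. SORBI_3002G195400 was lower in Roma in CK (-0.98, SE 0.27, adjusted p = 0.046), a call that held in 1 of 6 omissions, the one of Roma-CK3, and that Ballgown's linear model turned to 0.31. SORBI_3010G072100 had 9.33, 10.9 and 5.10 FPKM in the M-81E-CK libraries against 5.01, 5.87 and 5.18 FPKM in M-81E-salt and was lower in Roma in both conditions (-2.94 and -2.02, adjusted p = 0.00152 and 0.00052). Its neighbour by locus number SORBI_3010G072000 had 10.6 to 14.8 FPKM in M-81E-CK against 2.32 to 3.15 FPKM in Roma-CK (-1.94, SE 0.16, adjusted p = 0.00113).

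The methyltransferase SORBI_3010G052200 made up nearly all of the CCoAOMT sum. It had 1076, 1073 and 1063 FPKM in the M-81E-CK libraries against 660, 634 and 513 FPKM in Roma-CK (-0.84, SE 0.20, adjusted p = 0.0295), a call that held without Roma-CK1 or Roma-CK3 but not without any other library (adjusted p at most 0.0976). In salt it had 821, 994 and 1290 FPKM in M-81E and 634, 632 and 510 FPKM in Roma (adjusted p = 0.0629, and 0.0198 after rescaling). F5H, which leads to syringyl units, was lower in Roma at its most abundant locus SORBI_3001G196300, at 16.6 to 28.0 FPKM in M-81E-CK against 3.36 to 8.97 FPKM in Roma-CK (-1.66, SE 0.39, adjusted p = 0.0285, lost without M-81E-CK1 or M-81E-CK3, and 0.18 with an adjusted p of 0.937 in Ballgown's linear model). In salt it had 23.4 to 27.9 FPKM in M-81E against 5.14 to 14.5 FPKM in Roma (adjusted p = 0.0252, at most 0.0751 with a library left out, and held only without Roma-salt1 or Roma-salt3). The other F5H loci, named after their values were seen, were higher in Roma in CK. SORBI_3002G029500 was at 1.89 to 2.54 FPKM in Roma and 0.530 to 0.841 FPKM in M-81E (0.91, SE 0.15, adjusted p = 0.00983), and SORBI_3005G088400 was at 0.757 to 1.13 FPKM in Roma and 0.0397 to 0.433 FPKM in M-81E (0.70, SE 0.16, adjusted p = 0.0275). After rescaling to a common median, 1 of these 2 stayed called in CK. HCT SORBI_3004G212300 had 72.9, 74.8 and 81.4 FPKM in the M-81E-CK libraries against 49.9, 57.4 and 53.9 FPKM in Roma-CK (-0.50, SE 0.10, adjusted p = 0.017, and 0.056 without M-81E-CK2). In salt its groups overlapped, at 60.9 to 66.6 FPKM in M-81E and 62.1 to 65.0 FPKM in Roma. The difference there was -0.03 with FPKM as deposited (adjusted p = 0.838). Rescaled to a common median it was -0.42 (0.0163), and rescaled to loci of 10 FPKM or more it was -0.16 (0.24).

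**Figure D5:**
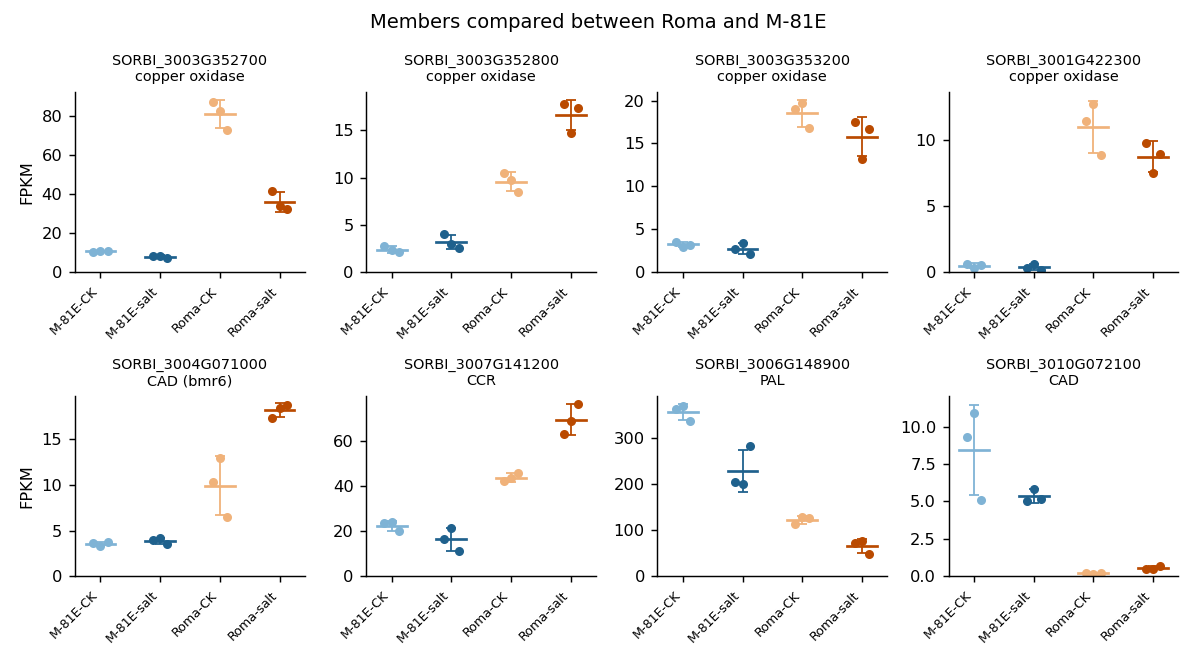
FPKM of 8 members in the 4 groups, with a point for each library, a bar for the mean and whiskers for the SD (n = 3), each axis starting at 0. The 4 copper oxidases, SORBI_3004G071000 and SORBI_3007G141200 lie higher in Roma, and PAL SORBI_3006G148900 and CAD SORBI_3010G072100 lie lower.

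The dirigent SORBI_3008G168800 was at 2.28 to 8.53 FPKM in the 6 M-81E libraries and at 0.0216 to 0.499 FPKM in those of Roma (-2.19 in CK and -2.70 in salt, adjusted p = 0.00515 and 0.000511). SORBI_3002G093600 was likewise at 1.41 to 4.14 FPKM in M-81E and at 0.0114 to 0.131 FPKM in Roma (-2.19 and -1.74, adjusted p = 0.000567 and 0.00571). Both dirigents exceeded 1 FPKM in every library of M-81E and in none of Roma. SORBI_3005G206000 was at 5.96 to 9.96 FPKM in M-81E-salt and 0.276 to 0.613 FPKM in Roma-salt (-2.62, SE 0.20, adjusted p = 0.000854), but in CK it ranged from 0.109 to 24.7 FPKM within M-81E. SORBI_3005G061700 had 17.1, 12.6 and 19.1 FPKM in Roma-salt and 0, 3.48 and 2.22 FPKM in M-81E-salt (adjusted p = 0.0176, at most 0.057 and lost without Roma-salt1 or Roma-salt3). Ballgown's linear model turned this difference to -3.73. SORBI_3006G011900 was higher in Roma-CK than in M-81E-CK, where it had 5.18, 3.19 and 0.318 FPKM (2.48, SE 0.58, adjusted p = 0.028). That call was lost after rescaling (0.065) and without M-81E-CK2 or any one Roma-CK library (at most 0.0799). SORBI_3003G064800 had 6.91 to 7.24 FPKM in the Roma-CK libraries against 0, 3.50 and 0 FPKM in M-81E-CK (adjusted p = 0.0446, and 0.0887 after rescaling), and only leaving out M-81E-CK2 kept the call. The most abundant dirigent, SORBI_3005G101800, was listed at 46.6, 46.2 and 0 FPKM in the M-81E-CK libraries against 0, 37.4 and 0 FPKM in M-81E-salt. The dirigent sum was 51.9 FPKM in M-81E-salt1 and 66.3 FPKM in M-81E-salt3, but 120 FPKM in M-81E-CK3, which also held a 0 at this locus. Whether this locus accounts for the low sums was not tested.

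Among the suberin loci, the fatty acid omega-hydroxylase SORBI_3003G360600 was at 1.79, 1.40 and 1.26 FPKM in the M-81E-CK libraries against 16.0, 16.9 and 15.5 FPKM in Roma-CK (2.79, SE 0.11, adjusted p = 0.00028; 2.44 after rescaling). In salt it was at 1.92, 1.76 and 1.65 FPKM in M-81E and at 14.6, 11.9 and 0 FPKM in Roma (adjusted p = 0.498), the last library being listed at 0. The most abundant feruloyltransferase, SORBI_3003G368100, ranged from 2.09 to 16.9 FPKM in M-81E and from 4.89 to 22.5 FPKM in Roma without a call. In salt, the fatty acyl-CoA reductase SORBI_3005G063400 stood lower in Roma (-0.79, SE 0.09, adjusted p = 0.00306), whereas in CK the difference was 0.18 (adjusted p = 0.153; -0.24 after rescaling, adjusted p = 0.146). The sum over all 15 fatty acyl-CoA reductases was 32.8 ± 3.2 FPKM in M-81E-CK, 31.2 ± 1.3 in M-81E-salt, 43.9 ± 0.3 in Roma-CK and 26.2 ± 3.3 in Roma-salt. Of the other members, the cellulose synthase SORBI_3002G075500 (84.5 to 163 FPKM) and the transaldolase SORBI_3003G410500 (101 to 200 FPKM) passed in no comparison.

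Other loci of the monolignol pathway lay outside the rule and were counted by their KEGG class. Of 70 such loci in M-81E (4CL, HCT, CCR, C4H, CAD and CCoAOMT classes), 0 passed the adjusted threshold by limma and 2 were DEGs, both lower. In Roma 2 of 66 passed, both lower, with 1 higher and 5 lower DEGs. Of all loci tested, 0.826% passed in M-81E and 1.82% in Roma. Higher DEGs were 3.07% and lower DEGs 3.5% of all loci in M-81E, and 5.15% and 4.44% in Roma. Among the members of the monolignol pathway, with PAL, C3H and F5H included, 0 of 65 passed in M-81E (0.826% of all loci did), with 1 higher and 3 lower DEGs. In Roma 1 of 66 members passed (1.82% of all loci did), with 4 higher and 7 lower DEGs. The 4CL SORBI_3004G062500, the bmr2 gene, had 376 to 787 FPKM in M-81E and 241 to 484 FPKM in Roma at its main locus and passed in none of the comparisons (adjusted p = 0.832, 0.913, 0.14 and 0.288). Its second locus was at 4.93 FPKM in M-81E-CK1 and listed at 0 elsewhere.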

How the data were processed

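Total RNA from roots was sequenced. By the study's methods the libraries were depleted of ribosomal RNA and stranded, while the labels name only a small RNA kit. The authors trimmed reads with cutadapt, mapped them with Bowtie2 and TopHat2, used StringTie to assemble loci, and deposited their FPKM values in 1 table, whose versions and genome build are not given in the sources used here. The files hold no read counts. Relative depth was estimated from the commonest ratio of values of at most 0.3 FPKM to those of M-81E-CK1. It was 0.815 to 1.039 times that of M-81E-CK1. The estimate is rough, because the commonest ratio, in bins of 0.01 on the log2 scale, held 56 to 143 of 2746 to 4914 loci. No counting error was computed. Of the FPKM columns, 0 were left unmatched to a sample.

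The members and gene lists were chosen with earlier results of these data known. Tests used limma 3.58.1 in R 4.3.3 (trended prior variance, log2(FPKM + 1), loci above 0 in at least 1 library, Benjamini-Hochberg adjustment over all loci), with the authors' 2-fold and p < 0.05 thresholds as the DEG rule. Alternatives were a pseudocount of 0.1, a mean of at least 1 FPKM, 2 rescalings (the one to loci of at least 10 FPKM added after seeing the data), 1 prior variance, Ballgown's linear model, all 12 libraries in 1 fit, a replicate block, and each library left out. The code was tested on simulated data. Named loci were up to 5 per direction with an adjusted p under 0.05 in each comparison, DEGs of smallest p to fill 4 per direction in the salt comparisons, the most abundant member of each role, monolignol loci of at least 50 FPKM, and the bmr2 and bmr6 genes. One further gene of this rule is not reported here. Of the 156 members, 153 had the description hypothetical protein, so roles, pathway loci and markers were taken from GO and KEGG terms and not, as planned, from descriptions. Sequences and promoter motifs were not analysed here.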

Additional observations from a re-analysis of the deposited data

Results flagged for a closer look

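The salt response of 5 members differed between the lines by the interaction test in limma over all 12 libraries. The difference, Roma minus M-81E on the log2 scale, was -0.98 for the fatty acyl-CoA reductase SORBI_3005G063400, -0.96 for the C3H CYP98A1, -1.09 for the locus of the dirigents SORBI_3002G093900 and SORBI_3002G093800, -0.75 for the copper oxidase SORBI_3003G352700 and 0.91 for the dirigent SORBI_3009G021300. Adjusted p was 0.00502, 0.038, 0.0388, 0.0496 and 0.00453 in that order. After the libraries were rescaled to a common median, the first and the last remained called. The other differences kept their sign and nearly their size, at -0.90 for CYP98A1, -1.03 for the locus of SORBI_3002G093900 and SORBI_3002G093800 and -0.68 for SORBI_3003G352700, with adjusted p of 0.0748, 0.0757 and 0.055.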

How the results depend on the processing

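In the order salt in M-81E, salt in Roma, lines in CK, lines in salt and interaction, limma called 2, 7, 61, 46 and 5 members, and 0 to 1, 1 to 2, 39 to 54, 33 to 45 and 2 to 6 with 1 library left out. DEGs, 15, 30, 56 and 46, became 12 to 16, 27 to 33, 52 to 59 and 38 to 47. With loci that averaged 1 FPKM or more, adjusted calls were 5 in M-81E and 12 in Roma. Over all loci they were 422 of 15079 and 1003 of 16830, against 266 of 32212 and 587 of 32264 without this filter. DEGs were 18 in Roma, 32 between lines in CK and 25 in salt, and over all loci 1520, 3904 and 3960. With 1 prior variance, adjusted calls were 6 in M-81E and 11 in Roma, and with all 12 libraries in 1 fit 7 and 25. The calls over all loci were 576 and 970 in the first of these settings and 871 and 2593 in the second. Ballgown's linear model gave 0 adjusted calls in the 4 comparisons (27, 33, 33 and 6 at an unadjusted p under 0.05) and 3 for the interaction, with 23 DEGs between lines in CK and 2 in salt. It reversed 5 values, to 0.18 for SORBI_3001G196300, 0.31 for SORBI_3002G195400 and -0.0206 for SORBI_3002G205100 in CK and to -3.73 for SORBI_3005G061700 and -1.44 for SORBI_3002G205100 in salt, and the cause was not tested. With limma's fold change as the fold threshold, DEGs were 5, 8, 28 and 24. Rescaling to a common median left 2 interaction calls.

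Same-numbered CK and salt libraries did not deviate together (correlations of -0.018, -0.006 and 0.031 in M-81E and -0.002, -0.063 and -0.066 in Roma), so the numbers were not taken as pairs. A replicate block gave 0 adjusted calls in M-81E, 0 in Roma (28 and 35 at an unadjusted p under 0.05), 30 between lines in CK and 2 for the interaction. Of 62 called values of named members, 33 stayed called with each library left out. FPKM without read counts limit what can be said of loci under 1 FPKM.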
